A study of Mus musculus with 4 samples.

Results

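The 10 genes of the proneural cascade of pallial neurogenesis, Neurog1, Neurog2, Eomes, Insm1, Gadd45g, Neurod1, Neurod4, Neurod2, Neurod6 and Btg2, were followed in single cells of the fetal mouse cortex. They were chosen by name, all 10 were among the 16600 genes measured, and the chain Neurog2, Eomes, Neurod1, Neurod2, Neurod6 was read by co-detection in the 4229 of 6562 cells that held no transcript of Dlx1 or Dlx2, genes of the inhibitory lineage. Cells had been sorted at E18.5 (embryonic day) as CD24+ CD45-, by a pan-neuronal marker and against a hematopoietic one. They came from cortices of 2 Setd5+/+ fetuses (libraries WT3 and WT6) and 2 Setd5+/- fetuses (het, libraries Het5 and Het9) on a C57BL/6J background. The het fetuses carried the Setd5GFP allele, which the study used as a heterozygous knockout, and the labels give no other allele or agent. Setd5 encodes a SET-domain protein linked to intellectual disability and autism.

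In the developing pallium, radial glia divide along the ventricle and give rise to intermediate progenitors, which divide again and produce the excitatory projection neurons of the cortex. Neurog1 and Neurog2 are basic helix-loop-helix (bHLH) transcription factors that start neurogenesis, Eomes (Tbr2) is the T-box factor that marks intermediate progenitors, and the bHLH factors Neurod1, Neurod2 and Neurod6 act in their postmitotic daughters. Insm1 is a zinc-finger factor of intermediate and basal progenitors, Neurod4 a further bHLH factor, and Gadd45g and Btg2 restrain proliferation in cells that leave the cycle.

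The libraries held 1445 to 1954 cells and 8205330 to 11742956 transcripts, counted as unique molecular identifiers (UMIs), with medians of 5398 to 5997 UMIs per cell. These are fewer cells than the labels give for a sample, and no filter on cells is stated. Levels are mean UMIs per 10000 UMIs of the cell. Setd5 lay at 1.18 and 1.07 in WT3 and WT6 and at 0.540 and 0.586 in Het5 and Het9, a log2 difference of -0.89 ± 0.08 (SE; limma, adjusted p = 0.0070). Xist, transcribed from the inactive X chromosome, lay at 20.6 and 21.5 in the WT libraries and at 0.152 and 0.310 in the het libraries, and the Y-linked Ddx3y at 0 and 0.000602 against 0.492 and 0.465, so genotype and fetal sex cannot be told apart in any comparison. Cd24a was found in 89.6% to 90.9% of cells and Ptprc, which encodes CD45, in 1.05% to 1.66%. In all, 277 cells had a barcode found in more than 1 library, 145 of them in a cluster led by Dct and 94 in one led by Cd74, and results on cells with no chain gene are also given without them. Doublets, 64 cells by Scrublet, were kept.

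Where in the tissue the members were found was read from 14 clusters, rebuilt without the members and named by their leading genes. Neurog2 and Eomes were highest in cluster 5, led by Kif26b and Rhbdl3 and intermediate progenitor-like, with 3 of 8 markers among its 50 leading genes, at 11.5 ± 1.36 (SD, n = 4 libraries) and 9.23 ± 0.43. Neurog2 was found there in 92.8% of the cells and Eomes in 96.9%. Cluster 9, led by the DNA replication genes Hells and Mcm3 and by E2f1, came next, with Neurog2 at 7.91 ± 2.05 and Eomes at 5.48 ± 0.38. Neurog1 and Neurod4 had the same 2 highest clusters, Neurog1 at 0.359 ± 0.092 in cluster 5 and 0.323 ± 0.089 in cluster 9, values that overlap within their spread, and Neurod4 at 0.611 ± 0.129 and 0.417 ± 0.050.

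Outside this progenitor pair the members separated. Cluster 3, led by Ttr, Aldoc and Fabp7 and radial glia-like, with 9 of 12 markers among them, held Neurog2 at 3.47 ± 1.40 in 38.1% of its cells, while Eomes was found in 18.8%, Neurod1 in 2.64%, Neurod2 in 12.5% and Neurod6 in 15.2%. Ttr, a choroid plexus gene, led by fold although only 15 of its 719 cells held it. Neurod1 was highest in cluster 6, led by Tac2, Synpr and Lhx9, at 7.38 ± 0.86. Cluster 6 was intermediate progenitor-like too, with 3 such markers among its leading genes, as in cluster 5. Neurog2 was found in 51.0% and Eomes in 58.2% of its cells. Neurod2 was at 13.8 ± 1.53 in cluster 11 (Tfap2d, Thsd7a) and 13.7 ± 0.69 in the excitatory neuron-like cluster 0 (Cntn2, Jakmip1), a pair that did not differ beyond its spread. Neurod6 was at 15.4 ± 0.72 in cluster 0 and 14.7 ± 1.09 in cluster 1 (Cxcl12, Cdh8), likewise within the spread, and at 7.94 ± 1.76 in cluster 11. Neurog2 lay at 0.216 in cluster 11 and was found in 12.4% of the cells of cluster 0.

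**Figure D1:**
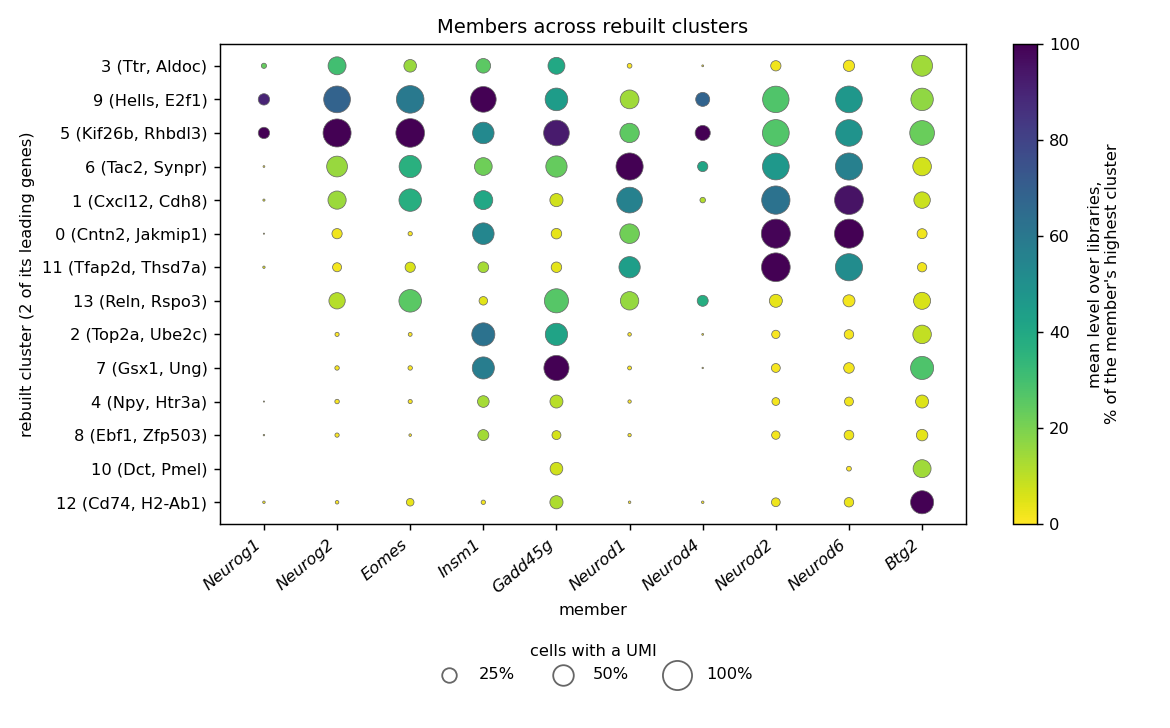
Members (x axis) across the 14 rebuilt clusters (y axis, with 2 of the leading genes of each); circle area gives the share of cells with a UMI over all libraries and color the mean level over 4 libraries as a percent of that member's highest cluster. Neurog2, Eomes and Neurod4 peak in cluster 5, Neurod1 in cluster 6, Neurod2 and Neurod6 in cluster 0 or 11, while Gadd45g, Insm1 and Btg2 extend into Dlx-expressing clusters 2 and 7.

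Insm1, Gadd45g and Btg2 were also found in cells of the inhibitory lineage. In clusters 2, 4 and 7, where under 10% of cells lacked both Dlx1 and Dlx2, Insm1 was found in 45.5%, Gadd45g in 48.9% and Btg2 in 38.4% of 1696 cells (median 5671.5 UMIs). Gadd45g had its highest level in the subpallial progenitor-like cluster 7 (Gsx1, Ung), at 8.27 ± 1.55, which overlaps the 7.68 ± 1.18 of cluster 5. Btg2 reached 10.8 ± 0.72 in cluster 12, led by the antigen presentation genes Cd74 and H2-Ab1, in which 94 of 132 cells carried a barcode of another library. In its other 38 cells Btg2 lay at 0.771, 0.612 and 0.223 in WT3, WT6 and Het5 (6, 6 and 3 cells) and at 8.19 in Het9 (23 cells), so the high level rested on cells of shared barcodes and on Het9. Insm1 was highest in cluster 9, at 3.09 ± 1.09. In the same Dlx-expressing cells Neurog2 was found in 2.24%, Eomes in 2.00%, Neurod1 in 1.53%, Neurod2 in 8.08% and Neurod6 in 10.8%, and these shares were taken as the background for the chain. In the 9 clusters outside these and the clusters led by Dct and Cd74 (4587 cells, median 5814 UMIs) the shares were 38.2%, 38.4%, 46.2%, 72.5% and 73.6%.

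The genes with the most similar pattern over 53 cluster-by-library means (14 clusters, Pearson r of log2 levels, 8142 genes compared) followed the same division. Nearest to Neurog2 were Tfap2c (r = 0.94), Loxl1 (0.93) and Celsr1 (0.92), and nearest to Eomes were Celsr1, Loxl1 and Kif26b (all 0.88). Neurod1 was closest to Clvs1 (0.94), Rbfox3 (0.94) and Unc5d (0.93). Unc5d also came nearest to Neurod2 (0.95, then Ppp2r2b and Serpini1) and to Neurod6 (0.95, then Mpped1 and Sstr2). The points share libraries and clusters, so these values describe the pattern only.

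To ask whether the chain was passed stepwise, detection of each gene (at least 1 UMI) was compared in cells with and without its predecessor, among the 4229 cells without Dlx1 and Dlx2. Eomes was found in 73.6% of the 1571 cells with Neurog2 (95% exact binomial interval 71.4% to 75.8%, counting error only) and in 16.0% of those without. The shares with Neurog2 were 72.4%, 75.4%, 73.7% and 72.6% in WT3, WT6, Het5 and Het9. Neurod1 was found in 59.1% of cells with Eomes (56.7% to 61.6%) and 36.4% of those without, with library values of 57.1%, 59.7%, 61.7% and 57.0%. The gap was thus narrowest at this link.

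The next links were tighter. Neurod2 was found in 92.2% of cells with Neurod1 (90.9% to 93.4%) against 52.4% of those without. Neurod6 was found in 92.4% of cells with Neurod2 (91.4% to 93.3%) against 21.0%. Skipping a gene did not loosen the link from Neurod1. With 2 UMIs required for detection, Neurod6 was in 89.5% of cells with Neurod1 against 54.0% of those without, and Neurod2 in 84.1% against 51.5%. Co-detection thus does not place Neurod2 before Neurod6. The later gene was more frequent in cells with its predecessor at all 4 links in all 4 libraries. With every cell thinned to 3000 UMIs, which left out 526 cells, the 4 shares were 70.0%, 47.2%, 83.4% and 89.9%, against 17.1%, 30.8%, 52.3% and 25.8% without the predecessor. The ends of the chain were less closely tied: Neurod6 was found in 74.7% of cells with Neurog2 and 69.1% of those without, in the cells with at least 3000 UMIs in 74.8% and 73.3%, and after thinning those cells in 64.4% and 67.5%, in the opposite order.

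**Figure D2:**
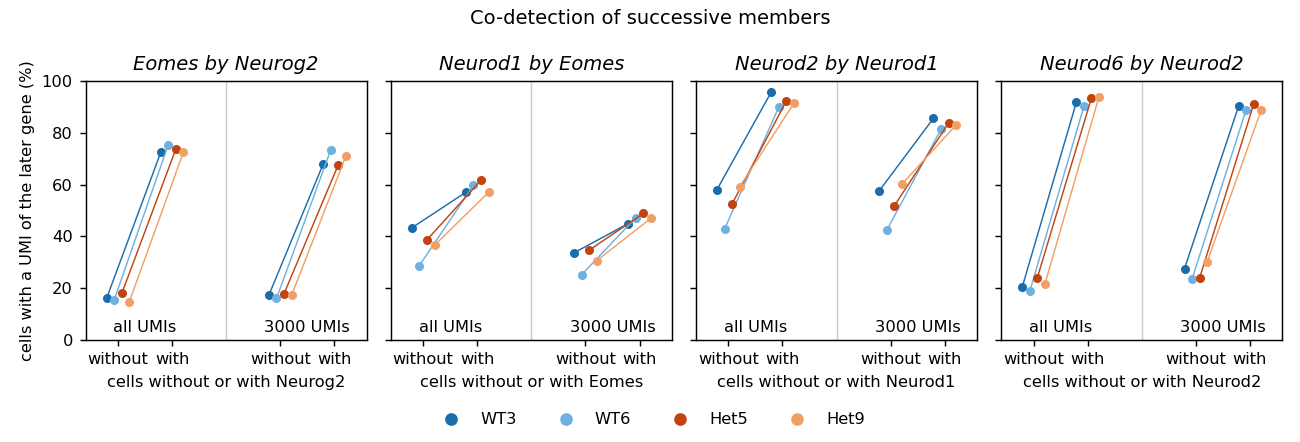
Share of cells with a UMI of the later gene (y axis, %) in cells without or with the preceding gene of the chain, by library, with all UMIs (left of each panel) and with cells thinned to 3000 UMIs (right); cells without Dlx1 and Dlx2. Every line rises from left to right, steeply for Eomes by Neurog2 and Neurod6 by Neurod2 and least for Neurod1 by Eomes.

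Neurod1 and Neurod2, a link between bHLH genes, are shown with the stretch before their start sites, since bHLH factors of the Neurog and Neurod families are known to bind E-boxes, of the form CANNTG, with the cores CAGATG and CATATG. These letters were searched on both strands of RefSeq windows of 300 bases (250 before and 50 after each start, GRCm38.p6), of which 32851 were given, including 10 for 9 of the 10 members. CATATG was found in 3.91% of all windows and, among the members, in those of Neurod1 and Neurod2. CAGATG was in 17.2% of windows and, among the members, in that of Neurod2. Any CANNTG was in 72.3% of windows and in 6 of the 10 windows of members. The window of Neurod6, the next bHLH gene of the chain, held neither core, so the 2 genes shown are the only members with them. Capitals mark CATATG and CAGATG in the bases before the outermost annotated start. The Neurod1 stretch is chr2:79456752-79456886 on the minus strand, the Neurod2 stretch chr11:98329649-98329895 on the minus strand. A match of letters is no evidence of binding, which was not measured.
Neurod1: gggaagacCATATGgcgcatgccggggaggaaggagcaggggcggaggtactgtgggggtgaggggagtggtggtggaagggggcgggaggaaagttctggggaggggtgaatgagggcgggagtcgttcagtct
Neurod2: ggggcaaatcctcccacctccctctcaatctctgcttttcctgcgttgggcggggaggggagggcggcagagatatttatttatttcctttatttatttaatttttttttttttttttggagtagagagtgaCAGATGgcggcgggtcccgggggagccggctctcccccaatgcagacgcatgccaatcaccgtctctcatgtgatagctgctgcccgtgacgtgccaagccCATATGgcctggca
The Neurod1 CATATG ends 121 bases before the start of the gene, and the Neurod2 CAGATG and CATATG end 109 and 8 bases before it.

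The combinations of chain genes were led by the late genes. The most frequent combination was Neurod1, Neurod2 and Neurod6 together (759 cells, 17.9%), followed by no chain gene (698 cells, 16.5%, or 471 cells and 11.9% without shared barcodes), Neurod2 with Neurod6 (617 cells) and all 5 genes (487 cells). Of the 2779 cells with 2 to 4 of the genes, 67.3% held an unbroken run of neighbors in the chain, with 69.8%, 66.4%, 66.2% and 66.9% in WT3, WT6, Het5 and Het9, and 9 of the 25 possible combinations of 2 to 4 genes are such runs. This share came mostly from cells with Neurod genes alone, of which 1392 of 1400 held a run. Among the 1379 that held Neurog2 or Eomes 477 did (34.6%). With Neurod genes alone only the pair Neurod1 and Neurod6 breaks a run, so a high share there was nearly fixed by the definition. The count of 9 in 25 takes all combinations as equally likely. Neurod2 and Neurod6 were found in 70.3% and 71.2% of the cells without Dlx1 and Dlx2, so it is no expected share. Cells with Neurog2 differed by cluster. In cluster 3, 44.9% of 247 Neurog2 cells also held Eomes and 17.0% Neurod2, whereas in cluster 5, 97.8% of 493 held Eomes and 84.4% Neurod2. In cluster 0, with the most cells, 3.12% of 128 Neurog2 cells held Eomes, while all of them held Neurod2 and Neurod6.

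Each cell was next assigned to a step, the last gene of the chain with a UMI. Neurod6 was the last gene in 3010 cells (71.2%), Neurod2 in 226 (5.34%), Neurod1 in 50 (1.18%), Eomes in 140 (3.31%) and Neurog2 in 105 (2.48%). Median UMIs per cell were 6762 at the Neurog2 step, 6713.5 at Eomes, 6273.5 at Neurod2 and 5757 at Neurod6, and 5100 in cells with no chain gene. The Neurog2 step was made of cluster 3 cells in 93.3% of cases and the Eomes step in 53.6%, while 33.8% of the Neurod6 step lay in cluster 0. Cells with no chain gene were mixed, with 39.7% in cluster 3 and 20.2% in cluster 10 (led by Dct). Another 17.0% lay in cluster 8 (led by Ebf1) and 14.5% in cluster 12 (led by Cd74). Contrasts with these cells thus also compare unlike cell types. The 5 members that do not define a step were tested between successive steps with library as a term, leaving out Neurod1, which was last in only 3 cells of WT3. The step is read from the same cells, so these tests describe what accompanies a gene of the chain.

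Gadd45g, a stress-inducible gene that slows the cell cycle, had the most marked course. Its level in WT3, WT6, Het5 and Het9 was 0.617, 0.480, 0.418 and 0.644 in cells without a chain gene, 1.61, 3.26, 2.58 and 3.42 at the Neurog2 step and 4.52, 9.61, 11.7 and 10.0 at the Eomes step. It was 4.99, 7.43, 6.23 and 9.23 at Neurod2 and 1.28, 1.82, 1.82 and 1.63 at Neurod6. The libraries did not overlap between none, Neurog2 and Eomes, nor between Neurod2 and Neurod6. Gadd45g rose by 2.101 ± 0.177 (log2 difference, SE; limma, adjusted p = 1.1e-09) from none to Neurog2 and by 1.66 ± 0.18 (adjusted p = 5.2e-07) from Neurog2 to Eomes, and fell by 2.00 ± 0.18 (adjusted p = 1.4e-08) from Neurod2 to Neurod6. With 2 UMIs required for detection the rise to Eomes was 0.93 and lost its call (adjusted p = 0.058).

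From none to Neurog2, 3 of the 5 members were called, where 17.6% of 8422 genes were (8.35% higher and 9.30% lower). Beside Gadd45g these were Insm1, higher by 0.95 ± 0.33 (limma, adjusted p = 0.048), and Btg2, lower by 1.35 ± 0.21 (limma, adjusted p = 2.4e-05). Insm1 lay at 0, 0.786, 0.509 and 1.27 at the Neurog2 step in WT3, WT6, Het5 and Het9, and its call was lost without WT6 (0.88, adjusted p = 0.19), Het5 (0.85, 0.22) or Het9 (0.47, 0.46). Of the 698 cells without a chain gene, 227 had a shared barcode, and without such cells Btg2 differed by -0.25 (adjusted p = 0.63) and Insm1 by 0.57 (adjusted p = 0.33), while Gadd45g differed by 2.67. After thinning to 3000 UMIs the Btg2 difference was 0.33 (adjusted p = 0.69).

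From Neurog2 to Eomes all 5 were called and higher, against 10.5% of all genes (5.38% higher and 5.08% lower). Insm1 rose by 1.78 ± 0.33, to 1.30, 2.15, 1.69 and 1.71, Btg2 by 1.27 ± 0.21, to 2.06, 2.64, 3.90 and 2.76, Neurod4 by 1.26 ± 0.25 and Neurog1 by 1.20 ± 0.33 (limma, adjusted p = 0.00070, 0.00020, 0.0016 and 0.018). Neurod4 had no UMI in any library at the Neurog2 step and Neurog1 lay at 0 in WT3 at the Eomes step, so their fold depends on the pseudocount. With thinned cells only Gadd45g stayed past the threshold at this step (1.04, adjusted p = 0.017), and Insm1 (0.92), Btg2 (0.70), Neurod4 (0.23) and Neurog1 (0.87) did not. With 2 UMIs required for detection only Neurog1 did (1.53, adjusted p = 0.011), and Gadd45g, Insm1 (0.69, 0.051), Btg2 (0.48, 0.41) and Neurod4 (1.42, 0.079) did not. Neurod4 lost its call without WT3 (1.13, adjusted p = 0.054), and Neurog1 without WT6 (0.78, 0.17) or Het5 (1.04, 0.14), without the filter (1.20, 0.068) or with a stricter limit on inhibitory genes (0.98, 0.073).

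From Eomes to Neurod2 none of the 5 was called by limma, where 3.88% of genes were (2.51% higher and 1.38% lower), and 3 had an unadjusted p under 0.05, against 17.5% of genes. Gadd45g was called lower here with 2 UMIs for detection (-1.07, limma, adjusted p = 0.016), and Neurog1 higher without WT6 (1.31, limma, adjusted p = 0.044). From Neurod2 to Neurod6, 3 of 5 were called, all lower, against 8.00% of genes (2.74% higher and 5.26% lower). Beside Gadd45g these were Btg2, by -1.07 ± 0.21 (limma, adjusted p = 0.0011), and Neurog1, by -1.47 ± 0.33 (limma, adjusted p = 0.0041), which lost its call without Het5 (-1.36, 0.078) or Het9 (-1.34, 0.072), after thinning (-1.29, 0.24) or with a pseudocount of 0.01 (-2.32, 0.13). Btg2 lost its call with 2 UMIs for detection (-1.06, 0.061). Insm1 stayed at 0.927, 1.46, 1.31 and 1.87 at the Neurod6 step, a difference of -0.10 ± 0.33.

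**Figure D3:**
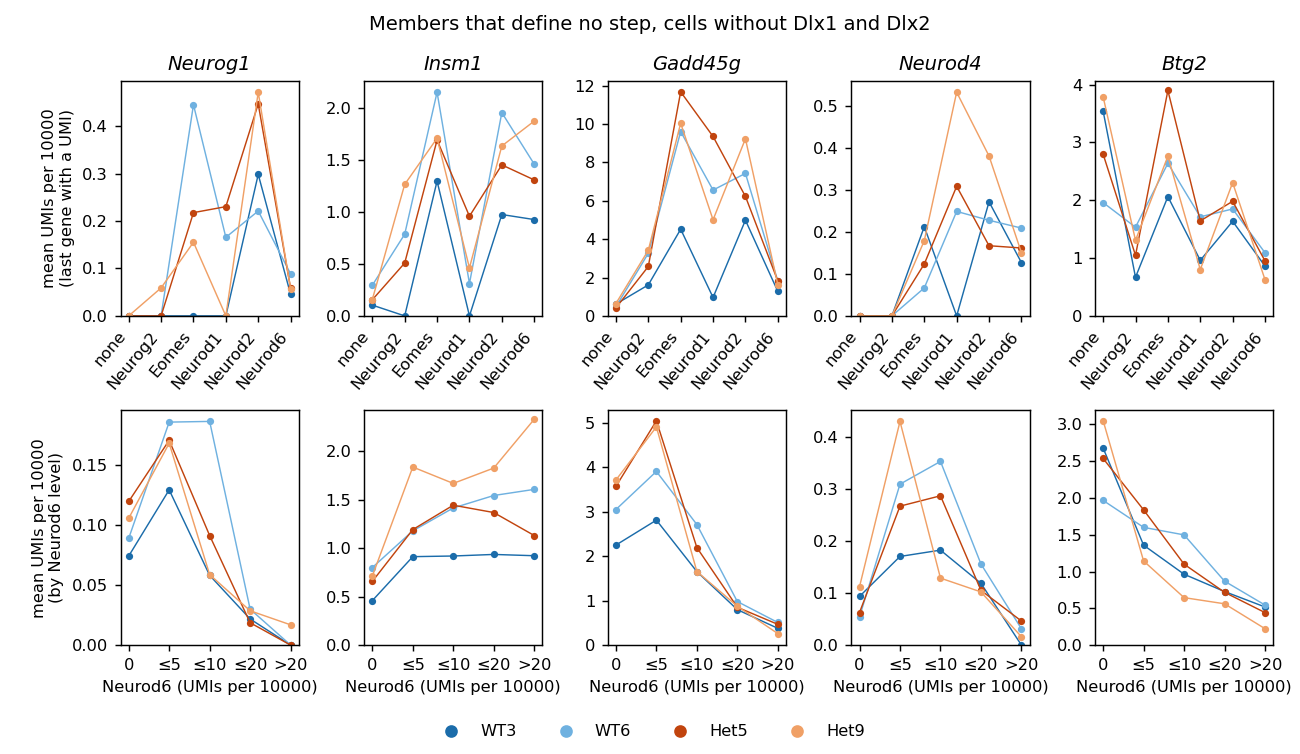
Mean level (y axis, UMIs per 10000) of the 5 members that define no step, one line per library, by the last chain gene with a UMI (top) and by the Neurod6 level of the cell (bottom); cells without Dlx1 and Dlx2. Gadd45g climbs from none to Eomes and is low at Neurod6 in every library, and Insm1 keeps its level in cells with more than 20 Neurod6 UMIs per 10000. The Neurod1 step of WT3 holds only 3 cells.

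Grouping cells instead by the first chain gene with a UMI, a grouping chosen after the data had been seen, left 3 of the 5 members above the filter. All 3 were called from none to Neurog2, against 17.5% of 8297 genes, with Insm1 (2.57) and Gadd45g (2.91) higher and Btg2 lower (-0.72, limma, adjusted p = 0.035). Without shared barcodes Insm1 differed by 2.18 and Gadd45g by 3.47, both called, where 28.1% of 8084 genes were. Btg2 turned to 0.36 without them and to 0.62 after thinning, neither called, and lost its call on summed UMIs (-0.08), with 2 UMIs for detection (-0.16), with a pseudocount of 0.01 (-0.75) and without WT3 (-0.61), Het5 (-0.79) or Het9 (-0.52). From Neurog2-first to Eomes-first cells only Gadd45g was called, lower by 2.37 ± 0.37 (limma, adjusted p = 0.0013, 1.23% of genes called), although with a pseudocount of 0.01 it was not (-2.49, adjusted p = 0.11). From Eomes-first to Neurod1-first cells only Btg2 was called, lower by 1.19 ± 0.23 (limma, adjusted p = 0.0063, 2.58% of genes), which did not hold without WT3 (-1.18, adjusted p = 0.071) or after thinning (-1.27, 0.29). From Neurod1-first to Neurod2-first cells none was called by limma and none had an unadjusted p under 0.05 (0.169% of genes called).

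The level of Neurod6 gave a finer order among the same 4229 cells. Neurog2 lay at 3.34 ± 0.73 (SD, n = 4) in cells without Neurod6, 5.67 ± 0.96 in cells with up to 5 Neurod6 UMIs per 10000, 3.45 ± 0.82 from 5 to 10, 1.75 ± 0.36 from 10 to 20 and 0.788 ± 0.152 above 20. Eomes followed the same course, at 2.06, 4.99, 3.60, 2.28 and 1.36. Neurod1 was at 0.456, 2.76, 3.71, 3.23 and 2.77 and thus kept most of its level in cells with the most Neurod6. Neurod2 was higher in each successive bin, from 0.810 ± 0.337 to 11.9 ± 0.98. Neurog2 was still found in 23.9% of the 468 cells above 20, against 2.24% in the Dlx-expressing clusters.

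Genes of related pathways were counted over the same contrasts, in lists chosen with earlier results known. Over all genes, by the last gene, 8.35% were called higher and 9.30% lower from none to Neurog2, and 5.38% and 5.08% from Neurog2 to Eomes. The shares were 2.51% and 1.38% from Eomes to Neurod2, and 2.74% and 5.26% from Neurod2 to Neurod6. By the first gene, 17.5% were called from none to Neurog2 and 1.23% from Neurog2 to Eomes. By the last gene without shared barcodes no such share is given. Radial glia genes were called in 6 of 12 from none to Neurog2, all higher, led by Pax6 (1.81) and Vim (1.22). Without shared barcodes this contrast had 2 higher (Pax6, 1.24, and Vim, 1.22) and 1 lower (Ptprz1, -0.65), with a median of 0.06, and between none and Neurog2 by the first gene 9 were lower and 0 higher (median -1.34, led by Fabp7, -2.002), or 10 and 0 without shared barcodes, so the direction depends on the cells compared. From Neurod1 to Neurod2 by the first gene, 2 radial glia genes were higher, Ptprz1 (1.69) and Aldoc (1.63), and 0 lower, where 0.169% of all genes were called. Without shared barcodes 7 of 12 were higher there and 0 lower, with a median of 0.83, where 1.58% of genes were called. By the last gene, the list was called in 11 of 12 from Neurog2 to Eomes and 12 of 12 from Neurod2 to Neurod6, all lower. Their median was 0.59, -0.93 and -1.503 in turn, with medians over all genes of 0.03, 0.01 and -0.02. The Notch effectors Hes5 and Hes1, which hold progenitors undifferentiated, fell by 1.68 and 1.67 from Neurog2 to Eomes, and Aldoc by 2.56 and Vim by 2.11 from Neurod2 to Neurod6. At the entry to the Eomes step 5 of 10 mitosis genes fell, among them Birc5 (-1.86) and Cenpf (-1.65), with 0 higher. From Eomes to Neurod2 the list had 1 higher, Top2a (1.16, limma, adjusted p = 0.038), and 0 lower, with a median of 0.35, and without shared barcodes Top2a (1.31) and Birc5 (1.07) were higher. From Neurod2 to Neurod6, 3 fell. Of 7 genes of cell cycle exit and D cyclins, 2 were called from Neurog2 to Eomes, both higher, the cyclin-dependent kinase inhibitors Cdkn1c (2.97) and Cdkn1a (1.82). From none to Neurog2 both had been lower (-1.57 and -3.05), of which Cdkn1a was not called without shared barcodes (-0.81, limma, adjusted p = 0.37). By the first gene Cdkn1c was called the other way from none to Neurog2 (1.67, and 1.14 without shared barcodes), and from Neurog2 to Eomes it was not called (-0.20 without shared barcodes). By the last gene the Notch list moved both ways from Neurog2 to Eomes, with Mfng (1.90), Hes6 (1.76) and the ligand Dll3 (1.33) among 4 of 10 higher and Lfng (-1.55) among 2 lower. By the first gene 0 of 9 were higher and 2 lower, Notch1 (-1.41) and Hes6 (-0.92), and without shared barcodes 0 and 4, with Mfng (-0.16) and Dll3 (-0.22) not called, so the rise of Hes6 turned with the grouping. At this contrast by the first gene 0 of 10 mitosis genes were called and 5 of 12 radial glia genes were lower, or 4 of 9 and 12 of 12 lower without shared barcodes, where 12.5% of all genes were called.

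Other differentiation factors and projection neuron genes were called at several steps, to be read beside the same shares over all genes. From none to Neurog2, 5 of 18 other proneural and differentiation factors were higher, among them Tcf4 (1.67) and Elavl4 (1.21), and 4 lower, against 8.35% and 9.30% of all genes. Without shared barcodes the counts were 3 and 4. By the first gene they were 11 and 3, or 12 and 3 of 17 without shared barcodes, where 28.1% of all genes were called. From Neurog2 to Eomes, 10 of 18 other proneural and differentiation factors were higher, led by the RNA-binding protein gene Elavl2 (2.51) and the co-repressors Cbfa2t3 (2.13) and Cbfa2t2 (1.89), and 3 lower, among them Id3 (-2.19), an inhibitor of bHLH factors. By the first gene 0 were higher and 2 lower, and without shared barcodes 4 and 4 of 17, with Elavl2 lower (-0.30, limma, adjusted p = 0.048) and Cbfa2t3 (-0.33) and Cbfa2t2 (-0.44) not called. Projection neuron genes were called higher in 1 of 15 from none to Neurog2 (Fezf2, 1.83) and lower in 7, against 10 higher and 3 lower by the first gene (9 and 4 without shared barcodes), and higher in 5 from Neurog2 to Eomes, led by Rbfox3 (2.297), Slc17a6 (1.98) and Tbr1 (1.34), with Bcl11b lower (-1.45). By the first gene none of the 15 was called by limma at this contrast, and without shared barcodes 8 were higher, among them Bcl11b (0.51), Slc17a6 (0.70) and Tbr1 (0.88), and 1 lower, while Rbfox3 was not called (0.27), so the direction of Bcl11b turned with the grouping. By the last gene, projection neuron genes were called higher in 6 of 15 from Eomes to Neurod2, led by Bcl11b (2.80), Nrp1 (1.54) and Dcx (1.44), and in 7 of 15 from Neurod2 to Neurod6, among them Nrp1 (2.63), Cntn2 (2.20) and Dcx (1.09), with 0 lower at either of these later contrasts. Subpallial genes were lower in 6 of 6 tested from none to Neurog2, led by Ebf1 (-3.29) and Gad2 (-3.22), and again in 6 of 6 without shared barcodes. At the Neurod2 step 5 of 6 were higher than at Eomes, among them Gad2 (1.86) and Ebf1 (2.34). At the Neurod6 step 3 of 6 were then lower. Gad2 encodes an enzyme of GABA synthesis, and Ebf1 is a factor of striatal neurons. Of the other cell types, 9 of 9 tested genes were lower at the Neurog2 step than in cells with no chain gene, led by Cd74 (-6.92) and Pmel (-5.36). Without shared barcodes 4 of the 6 still tested were lower, Hba-a1 (-4.48), Hbb-bs (-3.88), Ttr (-2.85) and Olig1 (-2.39), and Cd74 was not called (-1.70, limma, adjusted p = 0.15). The globins Hba-a1 (2.00) and Hbb-bs (1.63) were higher at Neurod6 than at Neurod2. Their part in the member results was not tested beyond leaving out shared barcodes.

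Whether the cascade differed in Setd5+/- cortex was read over the 4 libraries. In all cells, Neurog2 lay at 1.57 and 1.94 in WT3 and WT6 and at 2.51 and 2.22 in Het5 and Het9, with no overlap, a log2 difference of 0.41 ± 0.10 (limma, adjusted p = 0.71). Eomes lay at 1.69 and 1.81 against 2.16 and 2.00 (0.24 ± 0.07), Neurod1 at 1.69 and 1.43 against 1.92 and 1.86 (0.27 ± 0.08). Neurod2 lay at 5.01 and 3.89 against 5.33 and 5.78 (0.32 ± 0.11), and Neurod6 at 6.51 and 5.41 against 7.12 and 7.40 (0.29 ± 0.09). Insm1 overlapped, at 0.876 and 1.28 against 1.14 and 1.58, and so did Gadd45g, at 2.08 and 2.59 against 2.49 and 2.62. Neurog1, from 0.0414 to 0.0624, and Neurod4, from 0.0839 to 0.104, were below the filter. Without WT6, Neurod2 differed by 0.14, Neurod6 by 0.15 and Neurod1 by 0.15, and without WT3 Neurog2 differed by 0.27, Insm1 by 0.07 (0.32 with it) and Gadd45g by -0.02 (0.13 with it).

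None of the 8 members that passed the filter on low values was called, where 0.0860% of 8137 genes were, and 6 of the 8 had an unadjusted p under 0.05, against 4.34% of genes. Both het libraries lay above both WT libraries for 5 of the 8, against 15.5% of genes, and below them for Btg2 (1.32 and 1.41 against 1.25 and 1.17), against 16.4%. The median over these members was 0.28, and over all genes -0.00. The chain genes are found in the same cells, so their differences are not independent. Fewer cells of a type and less RNA per cell cannot be told apart in such whole-library means. Cells without Dlx1 and Dlx2 made up 62.4% and 59.98% of the WT libraries and 65.9% and 70.9% of the het libraries, so that share moved with the difference.

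Within the cells without Dlx1 and Dlx2 the differences were smaller for the chain genes. Neurog2 lay at 2.24 and 2.81 against 3.39 and 2.90 (0.31 ± 0.12) and Eomes at 2.42 and 2.616 against 2.93 and 2.620 (0.13 ± 0.08). Neurod2 overlapped, at 7.19 and 5.58 against 7.17 and 7.47 (0.20 ± 0.11), and Neurod6 lay at 9.28 and 7.81 against 9.51 and 9.45 (0.15 ± 0.08). Neurod1 lay at 2.42 and 2.09 against 2.62 and 2.45 (0.17 ± 0.08), with a narrow gap. Gadd45g (0.24 ± 0.16), Neurod4 (0.02 ± 0.11) and Btg2 (-0.07 ± 0.08) overlapped, and Neurog1 was below the filter. WT6 was low for the late genes and WT3 for the early ones, and single libraries set the size of these differences. Without WT6, Neurod2 differed by 0.02, Neurod6 by 0.03 and Neurod1 by 0.06. Without WT3, Neurog2 differed by 0.15, Eomes by 0.08, Insm1 by 0.13 (0.40 with it) and Gadd45g by -0.03, and without Het5 Neurog2 differed by 0.20 and Eomes by 0.06. None of 9 members tested was called by limma (0.0735% of 8166 genes were), and 1, Neurog2, had an unadjusted p under 0.05 (0.034), against 2.62% of genes. The het libraries were both above the WT libraries for 4 of the 9, against 14.5% of genes, and both below for 0, against 16.5%. Insm1 was lowest in WT3 and highest in Het9, at 0.809 and 1.58, and did so in Dlx-positive cells too, at 0.986 and 1.59.

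**Figure D4:**
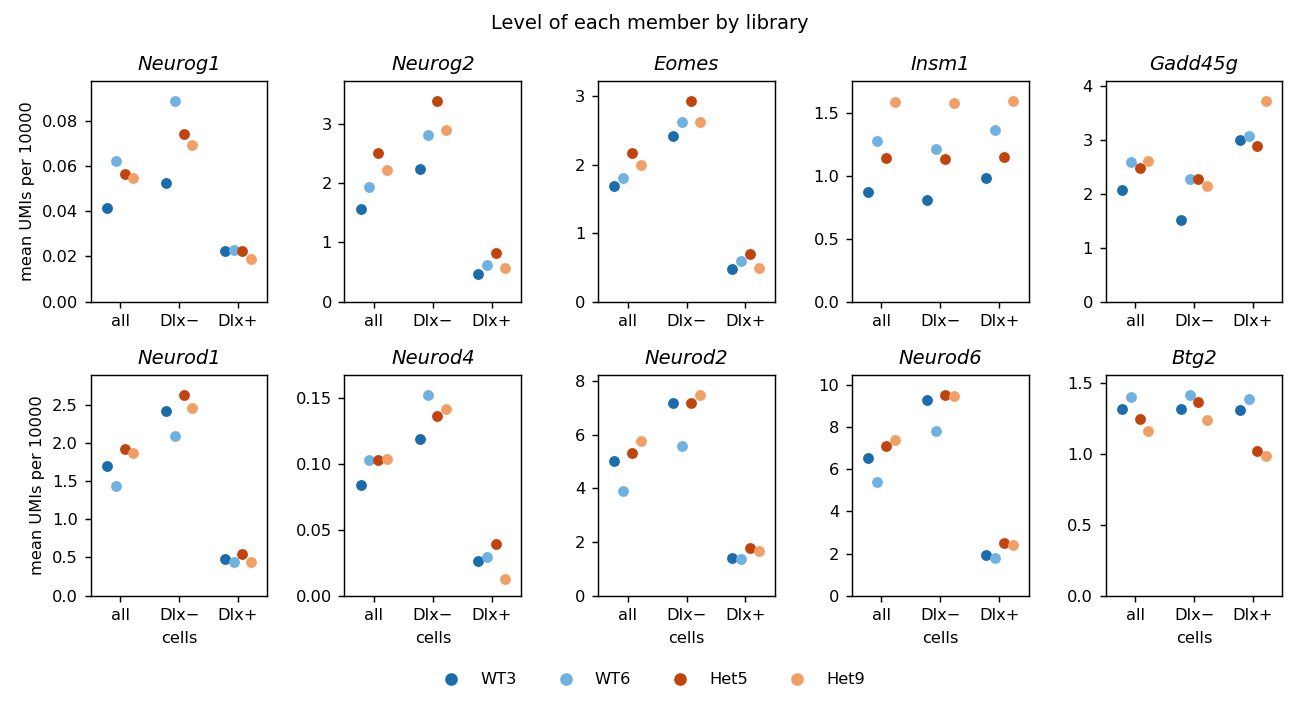
Mean level (y axis, UMIs per 10000) of each member in each library (points) over all cells, cells without Dlx1 and Dlx2 (Dlx−) and cells with either (Dlx+). The chain genes are low in Dlx+ cells, and the het libraries lie above the WT libraries for Neurog2, Eomes, Neurod1, Neurod2 and Neurod6 over all cells, with Neurod2 overlapping among Dlx− cells.

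The shares of the steps and the links were compared between genotypes by an exact permutation test over libraries, which cannot fall below 0.333 with 2 against 2, and no other test of these shares was run. Neurod6 was the last gene in 74.7% and 62.9% of the cells without Dlx1 and Dlx2 in WT3 and WT6 and in 73.7% and 74.7% in Het5 and Het9. No chain gene was found in 14.02% and 22.5% against 14.1% and 14.5%, and without shared barcodes in 8.89% and 18.7% against 9.43% and 9.29%, so WT6 stood apart at both ends and the groups overlapped. By the last gene only the Neurod2 step did not overlap, at 6.29% and 6.06% against 4.70% and 4.39% (two-sided exact permutation p = 0.333, the smallest that 2 against 2 allows), and this gap of -1.63 points became 0.29 after thinning. By the first gene, Neurog2-first cells made up 34.0% and 36.4% of the WT and 40.6% and 37.0% of the het libraries, also without overlap (exact permutation p = 0.333). The share of Neurod2 cells with Neurod6, 91.7% and 90.2% against 93.4% and 94.0%, was likewise apart (exact permutation p = 0.333). The other 3 links overlapped.

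Taking the 13 clusters that held 20 or more cells of each library, 2 of 87 member tests were called, against 0.0967% of all 98215 tests, and 23 had an unadjusted p under 0.05, against 5.03%. Both calls were in the radial glia-like cluster 3, where 17 of 8230 genes (0.207%) were called and 10 (0.122%) were higher in het. Neurog2 lay there at 2.34 and 2.27 in WT3 and WT6 and at 4.21 and 5.08 in Het5 and Het9, a log2 difference of 0.98 ± 0.10 (limma, adjusted p = 1.8e-06). Gadd45g lay at 2.12 and 2.26 against 3.28 and 5.57 (0.93 ± 0.15, limma, adjusted p = 0.0010). The groups did not overlap for either gene, and Het9 was far above Het5 for Gadd45g. Without Het9, Gadd45g differed by 0.56 (adjusted p = 0.0495), and on summed UMIs by 0.98, which was not called (limma, adjusted p = 0.055). Eomes, at 1.24 and 0.888 against 1.36 and 2.18, was not called (0.66 ± 0.17, limma, adjusted p = 0.27), nor was Insm1 (0.56 ± 0.22, limma, adjusted p = 0.92). Eomes was called without WT3 (0.88) or Het5 (0.98), and Insm1 without WT6 (0.96) or Het5 (0.89).

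The share of cluster 3 cells with a Neurog2 UMI overlapped between genotypes, at 42.2% and 30.7% against 38.2% and 49.2%. The level in cells with a UMI did not, at 5.54 and 7.39 in 43 and 77 WT cells and 11.004 and 10.3 in 91 and 63 het cells. Gadd45g was alike, with shares of 33.3% and 28.7% against 32.4% and 46.9% and levels of 6.36 and 7.88 against 10.1 and 11.9 in cells with a UMI. In alternatives chosen after the data had been seen, a finer clustering placed 529 of its 719 cells in 1 subcluster, in which Neurog2 lay at 3.34 and 3.21 against 5.38 and 6.24. Among cells of cluster 3 without Eomes, Neurod1, Neurod2 and Neurod6, the Neurog2 difference was 0.99 and not called (limma, adjusted p = 0.27), and that of Gadd45g was 0.21 (limma, adjusted p = 0.96). With the members kept in the clustering, Neurog2 stayed called in the closest cluster (0.99, adjusted p = 0.0080) and Gadd45g did not (0.78, adjusted p = 0.62).

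**Figure D5:**
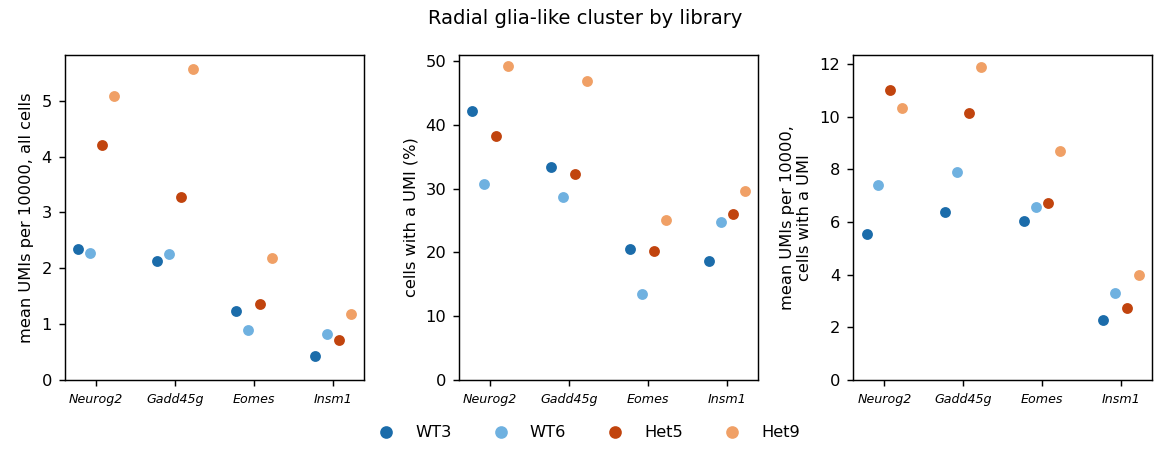
Neurog2, Gadd45g, Eomes and Insm1 in the radial glia-like cluster by library (points): mean level over all its cells, share of its cells with a UMI, and mean level in cells with a UMI. For Neurog2 and Gadd45g the 2 het libraries lie above the 2 WT libraries in level, and their shares overlap.

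Other genes moved with genotype in the same cluster. The globins Hba-a1, Hba-a2, Hbb-bs and Hbb-bt were higher in het (4 of 4 tested of 5 erythroid markers), with a summed level of the erythroid markers of 7.78 and 5.79 in the WT and 24.1 and 19.0 in the het libraries, while over all cells the 4 globins summed to 40.7 and 33.7 against 15.5 and 61.8. The 12 radial glia markers summed to 117 and 114 against 127 and 126, with Fabp7 called higher (0.26), and the 9 cycling markers to 11.1 and 10.1 against 11.3 and 8.30, with none called by limma. Olig1, an oligodendrocyte lineage gene, was called lower in het (-0.80) and found in 14.7% and 10.8% against 4.20% and 3.12% of cells. Without the Olig1 cells, an alternative also added later, Neurog2 still differed by 0.85 and Gadd45g by 0.90 (limma, adjusted p = 2.6e-05 and 0.0017). The remaining calls were Setd5, Fgf17 and Zic1, all lower in het, and the sex chromosome genes Xist, Tsix, Ddx3y, Eif2s3y, Kdm5d and Erdr1. The part of globin RNA and of sex in the member results was not tested.

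Outside cluster 3 no member was called with all 4 libraries in these clusters. With 1 library left out, members were called in other clusters, all in single settings except Insm1 in cluster 0. Without WT6 these were Insm1 in clusters 0 (0.65) and 1 (0.94) and Gadd45g in cluster 6 (0.93). Without Het5 they were Insm1 in clusters 0 (0.66) and 2 (0.52), Neurod6 in cluster 2 (-1.26) and Btg2 in cluster 4 (-1.42), and without Het9 Gadd45g in cluster 4 (-0.998). In 1 cluster of the finer clustering Neurod1 was called (0.55, limma, adjusted p = 0.049). With all 4 libraries, the nearest to the threshold was Neurog2 in cluster 6, at 0.62 ± 0.11 (limma, adjusted p = 0.088). In cluster 5, intermediate progenitor-like as cluster 6 was, the Neurog2 difference was 0.23 ± 0.08 (limma, adjusted p = 0.80) and that of Eomes 0.08 ± 0.08. In cluster 0 those of Neurod2 and Neurod6 were 0.12 ± 0.07 and 0.06 ± 0.08. Whether the Neurog2 difference was larger in cluster 3 than in cluster 5 or 6 was not tested.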

How the data were processed

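Each fetus gave 1 10x Genomics 3′ v2 library. Per the submitters' processing notes, the tools were Cell Ranger 2.1 and Seurat 2.3.0, and the build was mm10. Annotation, strand setting and cell filters: not given in the sources used here. Natural log values, ln(1 + UMIs per 10000), were deposited for the cells of all libraries in 1 table. Whole UMIs were recovered from 100% of the 14848520 values above 0 (tolerance 0.001). Cell name prefixes give the genotype but no replicate number.

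Clusters came from scanpy 1.11.5 and Leiden, without the members. limma 3.58.1 with a mean-variance trend took log2(mean + 0.1) per library, or per library and step, for genes averaging at least 0.1, and used Benjamini-Hochberg adjustment over all genes and a threshold of 0.05. Alternatives changed the pseudocount, the filter, detection, depth (thinning, summed UMIs), cells (doublets, shared barcodes) and clustering, or left out 1 library. Grouping by the first gene, the radial glia-like cluster's own alternatives, the lists, step shares and cluster levels without shared barcodes and the unthinned cells with at least 3000 UMIs were chosen after seeing the data. No count model was fitted. Coordinates are those of GENCODE M21 (GRCm38). Neurod1 overlaps Cerkl on its own strand, so their UMIs may be shared. Gm26755 overlaps Neurod1, and Gm33460 overlaps Eomes, on the opposite strand, where UMIs would be shared only without strand-specific counting.

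The genes named were the members that a comparison tested, genes among the 4 with the largest differences in a list and contrast, the 3 leading genes of a cluster, and the 3 genes most similar to each chain gene (1 gene is not reported here). Outside this rule, the genes called in cluster 3 and those named for the lists by the first gene or without shared barcodes were chosen after their values were seen, and Xist, Ddx3y, Cd24a and Ptprc served as checks. Members, lists and tests were chosen with earlier results of these data known. Only 2 libraries stand for each genotype. The SEs and p-values of limma draw on the spread between libraries and on a variance trend over all genes. A small SE therefore need not mean that the libraries agreed closely for that gene.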

Additional observations from a re-analysis of the deposited data

How the results depend on the processing

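No member was called between genotypes over all cells or over cells without Dlx1 and Dlx2 under any alternative run, and all 4 links of the chain held in each. Of the member calls in clusters (2), 1 was left with the members kept in clustering, and leaving out 1 library gave 3 to 8, with 6 without WT6 and 8 without Het5. In the radial glia-like cluster, leaving out 1 library gave Neurog2 differences of 0.84 to 1.11 and Gadd45g differences of 0.56 to 1.31. Among cells there without later chain genes they were 0.9864 and 0.2062, neither called. Gadd45g also lost its call with summed UMIs (0.9791) and with the members kept (0.7808).

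Of 11 member calls between steps, 5 were left after thinning and 6 with 2 UMIs for detection, and 8 to 10 with 1 library left out. By the first gene, 5 calls became 3 with a pseudocount of 0.01, 10 without the filter, 8 with a stricter inhibitory limit and 3 to 5 with 1 library left out (3 without WT3). Btg2 between none and Neurog2 changed sign after thinning by the last (0.3277) and the first gene (0.6248), and by the first gene without shared barcodes (0.3567). Steps whose shares did not overlap between genotypes went from 1 to 0 after thinning and 1 to 6 with 1 library left out (6 without WT3, 5 without WT6, 2 without Het5), but 1 library against 2 is free of overlap more often by construction, so these counts cannot be set against that of 2 against 2. In the fits the lone library is assumed to vary like the others. The causes were not tested.

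No paired analysis was possible because the cell name prefixes carry no replicate number shared between the genotypes. Neurog1 and Neurod4 were found in 2.32% and 4.71% of cells, which limits their precision.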
